A study of Mus musculus with 8 samples.

Results

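Hemoglobin and the red cell genes around it were followed through bulk RNA-seq of 4 mouse tissues. The 6 genes, Hba-a1, Hba-a2, Hbb-bs, Hbb-bt, Alas2 and Bpgm, were taken by symbol from a table of 52195 genes, and all 6 passed the filter on low values, an FPKM of at least 1 in 2 or more libraries. Kidney, lung, liver and small intestine of male C57BL/6J mice aged 6 to 10 weeks, for which no treatment or transgene is named, were each sequenced as 2 libraries, 8 in all. The 2 libraries of an organ came from separate mice, and all 4 organs were taken from each mouse, so libraries of different organs share animals. The organs were rinsed in PBS after excision, powdered under liquid nitrogen and extracted with Trizol, and polyadenylated RNA was captured. Values are FPKM, reads scaled to the exon length of the gene and to the size of the library. Between 9164187 and 21444675 reads were counted on genes per library. The marker genes listed for each organ, 4 per organ, were all called higher in the organ they name, save 1 kidney marker that did not pass the filter.

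Hemoglobin is a tetramer of alpha and beta globin chains, each with a haem group that binds oxygen. Red cell precursors make both chains in near equal amounts, and the circulating mammalian red cell, which has no nucleus, still carries globin mRNA when young. In an organ with no red cell formation, globin mRNA is therefore commonly read as blood held in its vessels. Hba-a1 and Hba-a2 are the adult alpha globin genes, and Hbb-bs and Hbb-bt are the adult beta globin genes of the C57BL/6 haplotype. Alas2 encodes the erythroid form of 5-aminolevulinate synthase, the first enzyme of haem synthesis. Bpgm encodes bisphosphoglycerate mutase, which makes the 2,3-bisphosphoglycerate that lowers the oxygen affinity of hemoglobin.

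In GRCm38 with GENCODE M21 annotation, the alpha genes stand in tandem on the plus strand of chromosome 11, Hba-a1 at chr11:32283511-32284465 and Hba-a2 at chr11:32296489-32297298. The beta genes lie on the minus strand of chromosome 7, Hbb-bt at chr7:103812524-103813996 and Hbb-bs at chr7:103826534-103828096. Alas2 is at chrX:150547375-150570638 and Bpgm at chr6:34476207-34505613, both on the plus strand. Of the 31-base words in the exons of Hba-a2, 92.6% also occur in Hba-a1, and 54.4% of those of Hbb-bs occur in Hbb-bt. How reads that fit more than 1 gene were counted is not given in the sources used here, so the division within each pair is uncertain and the summed alpha and summed beta values are the safer measure. Alas2 and Bpgm share no such word with another gene, but words were compared only as transcripts read, so exons on the opposite strand were not counted. Exons of Apex2 and Mir3620 cover 15.5% of the exon bases of Alas2, and Apex2 itself lay between 0.667 and 1.43 FPKM in the 8 libraries.

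The 250 bases before the RefSeq start of 5 of the 6 genes (GRCm38.p6) are printed because the globins varied together across the libraries while Alas2 and Bpgm did not. Each window reads 5′ to 3′ on the strand of its gene, and capitals mark a match, on either strand, to the GATA motif (AGATAA or TGATAA), the CACCC box (CCNCNCCC), CCAAT, or a TATA-like CATAAA or TATAAA. The GENCODE starts of these genes lie inside the windows, upstream of the RefSeq starts.
Hba-a1: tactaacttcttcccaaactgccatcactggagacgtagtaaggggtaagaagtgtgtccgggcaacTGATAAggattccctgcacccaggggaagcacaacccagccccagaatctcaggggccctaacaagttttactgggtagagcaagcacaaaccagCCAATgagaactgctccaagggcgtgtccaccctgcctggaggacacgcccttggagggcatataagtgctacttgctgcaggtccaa
Hbb-bs: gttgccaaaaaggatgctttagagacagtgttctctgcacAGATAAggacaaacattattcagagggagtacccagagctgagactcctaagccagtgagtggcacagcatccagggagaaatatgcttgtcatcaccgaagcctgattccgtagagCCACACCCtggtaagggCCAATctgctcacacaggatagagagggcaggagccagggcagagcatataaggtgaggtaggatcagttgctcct
Hbb-bt: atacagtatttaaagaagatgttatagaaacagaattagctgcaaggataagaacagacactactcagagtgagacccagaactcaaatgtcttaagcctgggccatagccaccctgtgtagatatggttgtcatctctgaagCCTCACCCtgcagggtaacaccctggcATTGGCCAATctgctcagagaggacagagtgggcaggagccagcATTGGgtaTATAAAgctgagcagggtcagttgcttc
Alas2: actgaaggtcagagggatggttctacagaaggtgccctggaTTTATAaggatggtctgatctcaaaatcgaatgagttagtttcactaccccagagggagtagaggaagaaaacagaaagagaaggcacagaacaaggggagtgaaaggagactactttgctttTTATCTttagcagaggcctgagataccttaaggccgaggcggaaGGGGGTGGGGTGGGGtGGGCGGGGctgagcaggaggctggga
Bpgm: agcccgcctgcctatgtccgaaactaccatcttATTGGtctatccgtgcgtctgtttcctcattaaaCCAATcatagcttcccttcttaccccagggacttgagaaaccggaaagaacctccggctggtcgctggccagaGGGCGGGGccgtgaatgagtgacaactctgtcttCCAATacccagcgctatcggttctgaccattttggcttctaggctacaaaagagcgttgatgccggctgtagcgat
The windows are, in that order, chr11:32283422-32283671, plus strand, chr7:103827929-103828178, minus strand, chr7:103813924-103814173, minus strand, chrX:150547167-150547416, plus strand, and chr6:34476106-34476355, plus strand.

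The Hba-a1 and Hba-a2 windows are identical in 247 of 250 bases at the best shift, those of Hbb-bs and Hbb-bt in 50.8% and those of Hba-a1 and Hbb-bs in 31.2%. A GATA motif was found in 4 of the 6 windows (both alpha genes, Hbb-bs and Alas2), against 16.6% of 32851 promoter windows of the same length. The CACCC box was in 4 of the 6 (Hbb-bs, Hbb-bt, Alas2 and Bpgm) against 45.9%, CCAAT in 5 of the 6 (all but Alas2) against 33.8%, and a TATA-like match in 2 (Hbb-bt and Alas2) against 20.9%. In the Alas2 window several of the CACCC matches overlap. These are matches of letters only.

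Lung held far more globin mRNA than the other organs. Hba-a1 reached 5028 and 5959 FPKM in replicates 1 and 2 of lung, against 178 and 589 for kidney, 150 and 158 for liver and 78.8 and 19.1 for small intestine. Hba-a2 reached 5276 and 6254 FPKM in lung, against 191 and 629 for kidney, 160 and 166 for liver and 83.1 and 20.3 for small intestine. Both alpha genes thus ran lung, kidney, liver, small intestine from high to low, and no libraries of different tissues overlapped.

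The beta genes kept that order. Hbb-bs reached 5445 and 7446 FPKM in lung, against 288 and 696 for kidney, 228 and 257 for liver and 97.5 and 34.0 for small intestine. Hbb-bt reached 3432 and 5214 FPKM in lung, against 209 and 493 for kidney, 152 and 168 for liver and 67.3 and 26.1 for small intestine. Ranked by FPKM among all genes of its library, Hbb-bs held ranks 13 and 12 in the lung libraries, 105 and 44 in those of kidney, 197 and 167 in those of liver, and 553 and 1369 in those of small intestine.

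**Figure D1:**
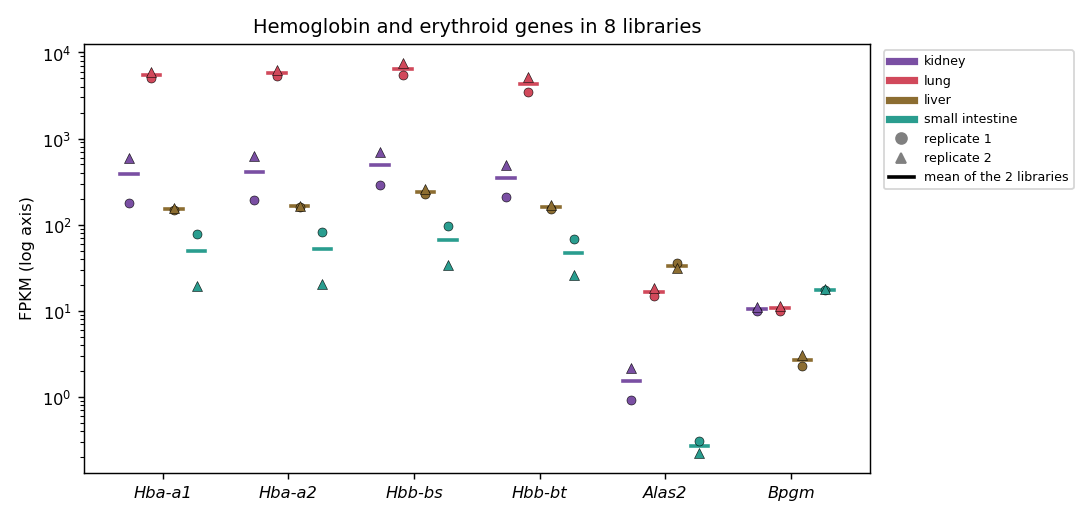
FPKM (log axis) of the 6 genes in each library, with tissues by colour, replicates 1 and 2 as circle and triangle, and the mean of the 2 libraries as a bar. The 4 globins run lung, kidney, liver, small intestine, with lung at 3432 FPKM or more for each, whereas Alas2 is highest in liver and Bpgm in small intestine.

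Summed over the 4 genes, globin averaged 22027 ± 4025 FPKM for lung (SD, n = 2 here and for each tissue mean), 1637 ± 1090 for kidney, 720 ± 41.8 for liver and 213 ± 161 for small intestine. The mean in lung was 13.5 times that of kidney, 30.6 times that of liver and 103 times that of small intestine. The fold over kidney was 25.4 without kidney replicate 2, and that over small intestine was 221 without small intestine replicate 1 and 67.4 without replicate 2. Under median-of-ratios scaling these folds were 5.65, 9.68 and 60.5, still with lung highest. As a share of all counted reads, the globins took 1.42% and 1.84% of the lung libraries (95% Wilson intervals 1.41% to 1.43% and 1.83% to 1.85%) and 0.0640% and 0.178% of the kidney libraries. The share was 0.0510% and 0.0555% for liver and 0.0242% and 0.00736% for small intestine, the last from 833 reads (0.00687% to 0.00787%). These intervals cover counting error only. Outside liver they are far narrower than the gap between the 2 libraries of a tissue. The liver intervals, 0.0496% to 0.0525% and 0.0540% to 0.0569%, do not overlap but lie close. In whole organs, a smaller share of red cells and less globin mRNA per red cell cannot be told apart.

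In the comparison of lung with the mean of the other 3 tissues, all 4 globins were called higher (limma on log2(FPKM + 1), adjusted p under 0.05 and a log2 difference over 1). The log2 difference was 5.44 for Hba-a1 (SE 0.57, adjusted p = 7.28e-05), 5.42 for Hba-a2, 5.10 for Hbb-bs and 5.02 for Hbb-bt. With Alas2, 5 of the 6 genes were called higher, and of all 16328 genes tested 40.7% were, at a median difference of 0.82, so the count is to be read against that share. Median-of-ratios scaling brought the median over all genes to -0.02 and left the globins at 3.83 to 4.25, all called. Lung also exceeded each single organ for all 4 globins, kidney by log2 differences of 3.72 to 4.08 (41.4% of genes were called lower in kidney than in lung), liver by 4.71 to 5.15 (55.5% called higher in lung) and small intestine by 6.62 to 7.09 (30.6%). For each globin both lung libraries lay above the other 6, as they did for 51.4% of the genes tested, and the exact two-sided permutation p was 0.0357, the smallest that 28 ways to choose 2 of 8 libraries allow.

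Kidney and liver, next in the order, gave no called difference in the globins. Mean FPKM in kidney was between 2.03 times (Hbb-bs) and 2.51 times (Hba-a2) that in liver, and no library overlapped, but the 2 kidney libraries themselves differed by more than 2 times. The log2 differences were 0.89 to 1.08, with adjusted p between 0.170 and 0.275 in limma. With 1 library left out they ran from 0.21 to 1.93 for Hba-a1 and from 0.25 to 1.52 for Hbb-bs. With mitochondrial genes left out, Hbb-bs (1.47, adjusted p = 0.0443) and Hbb-bt (1.58, adjusted p = 0.0278) were called higher in kidney. Alas2 (lower in kidney) and Bpgm (higher in kidney) made up the 2 of 6 called in this pair, where 6.9% of genes were called lower and 16.2% higher in kidney. Against the mean of the other 3 tissues, kidney globins stood at -0.00 to 0.06 on the log2 scale, and of the 6 only Alas2 was called, as lower (-1.89, where 16.1% of all genes were).

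Small intestine had the least globin. Against the other 3 tissues on average, each globin was called lower, with log2 differences of -4.03 to -3.81 with adjusted p between 0.000178 and 0.000697 in limma, together with Alas2. These 5 genes called lower compare with 11.3% of all genes, and both small intestine libraries lay below the other 6 for each of them (8.0% of all genes). The exact permutation p was 0.0714 for each of the 6 genes. Globins in small intestine also lay below those of liver, by 1.90 to 2.05 on the log2 scale (adjusted p 0.0131 to 0.0444 in limma). In that pair 7.89% of genes were called higher in liver and, as Bpgm was, 28.3% lower. Small intestine globins lay below those of kidney by 2.90 to 3.04 (10.7% called higher in kidney). With 1 library left out, the difference of Hba-a1 ran from 0.95 to 2.94 for liver and from 2.02 to 4.01 for kidney. Against liver, 2 of the 6 genes were called without small intestine replicate 2, the lowest library, or without either liver library, in place of 6. The calls of Hba-a1 and Hba-a2 against liver were also lost with the replicate block (adjusted p = 0.0612 and 0.0596), with no filter, in limma-voom and without either lung library. Against kidney, the calls of Hba-a1 and Hba-a2 were lost without kidney replicate 2 or without small intestine replicate 2, leaving 2 in place of 4.

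In liver against the mean of the other 3 tissues, the globins stood at -1.42 (Hba-a1 and Hba-a2), -1.18 (Hbb-bs) and -1.27 (Hbb-bt), with adjusted p between 0.0239 and 0.0494 in limma. With Alas2 and Bpgm all 6 genes were called, 1 higher and 5 lower, where 6.56% and 32.7% of all genes were. The median of all genes in liver was -0.72. Median-of-ratios scaling left them at -0.40 to -0.16, with 2 of the 6 genes called, 1 higher and 1 lower, and leaving out either liver library or lung replicate 2 gave the same count of 2. The replicate block ended the calls of Hba-a1 (adjusted p = 0.0645 in limma), Hba-a2 (0.0649) and Hbb-bs (0.0509), and with no filter none of the 4 globins was called (0.0644 to 0.115). The calls of Hba-a1 and Hba-a2 were also lost with a pseudocount of 0.1 (0.0527 and 0.0530), with no trend (0.0544 and 0.0548) and in limma-voom (0.0535 and 0.0542). The exact permutation p was 0.643 for Hbb-bt and 0.679 for the other 3 globins.

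Alpha and beta globin ran close together. Summed alpha globin ranged 310-fold over the 8 libraries, from 39.4 to 12212 FPKM, and summed beta globin 210-fold, from 60.2 to 12661, while their ratio stayed between 0.655 and 1.16. By library, alpha over beta came to 1.16 and 0.965 for lung, 0.741 and 1.02 for kidney, 0.816 and 0.761 for liver and 0.982 and 0.655 for small intestine. Both liver libraries lay below both lung libraries, and every other pair of tissues overlapped. The log2 ratio averaged 0.08 ± 0.19 for lung, -0.20 ± 0.33 for kidney, -0.34 ± 0.07 for liver and -0.32 ± 0.41 for small intestine. Only lung replicate 1 and kidney replicate 2 held more alpha than beta globin.

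Within each chain the balance was steadier still. The ratio of Hba-a2 to Hba-a1 lay between 1.05 and 1.08 in every library, and that of Hbb-bs to Hbb-bt between 1.30 and 1.59. The part of reads shared between the genes in these steady ratios was not tested. The lowest Hbb-bs to Hbb-bt ratio, 1.30, was in small intestine replicate 2 and the highest, 1.59, in lung replicate 1.

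**Figure D2:**
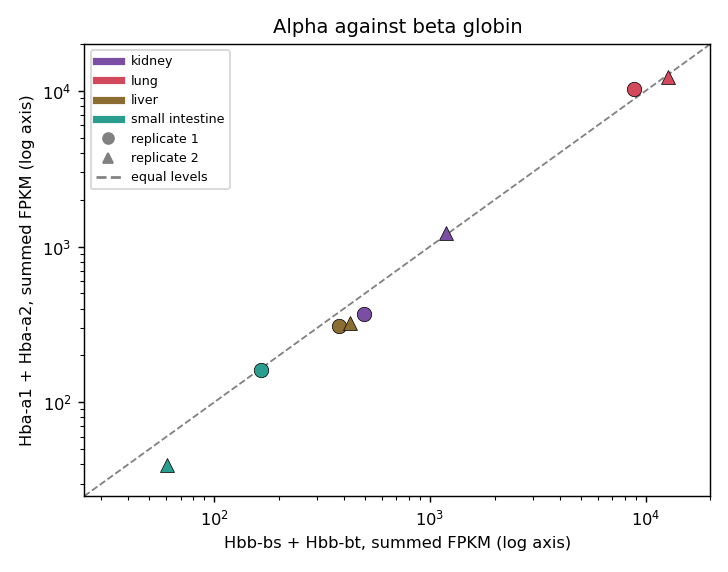
Summed alpha globin (Hba-a1 and Hba-a2) against summed beta globin (Hbb-bs and Hbb-bt) in FPKM, both on log axes, 1 point per library, with a dashed line where the levels are equal. Over a range of 310-fold in alpha globin the points keep near the line, with ratios of 0.655 to 1.16.

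The 2 libraries of an organ differed far more for globin in kidney and small intestine than in lung and liver. Kidney replicate 2 held 2.78 times the summed globin of replicate 1, and small intestine replicate 2 held 0.305 times that of replicate 1, against 1.30 in lung and 1.09 in liver. Kidney replicate 2 stands apart in other genes as well, with a median difference of -0.22 from replicate 1 over all genes tested, the most of any organ. The summed organ markers split, higher in replicate 2 than in replicate 1 for the kidney list (32875 against 16901 FPKM) and the lung list (66.8 against 28.5), and lower for the liver list (484 against 500.1) and the small intestine list (34.7 against 43.6). The part of these differences in its globin level was not tested. In kidney the alpha genes differed by 3.31 and 3.29 times and the beta genes by 2.42 and 2.36 times. In small intestine replicate 2 the alpha genes were at 0.243 and 0.244 and the beta genes at 0.349 and 0.388 times their replicate 1 level. Between the libraries of a tissue, all 4 globins differed by more than 1 on the log2(FPKM + 1) scale in kidney and in small intestine, and none did in lung or liver. Of all genes tested, 5.84% differed that much in kidney, 2.69% in small intestine, 2.57% in lung and 1.36% in liver. In both organs alpha globin moved further than beta globin, so there the library with more globin had the higher alpha to beta ratio, while in lung and liver it had the lower. Bpgm differed by 1.13 times in kidney and 1.03 times in small intestine. Alas2 was higher in kidney replicate 2 as well, by 2.32 times (90 reads against 48).

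**Figure D3:**
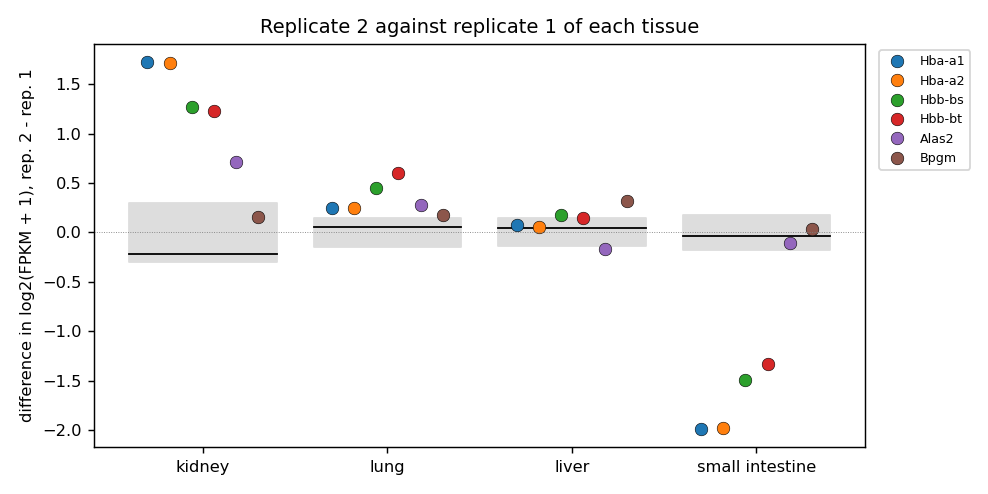
Replicate 2 minus replicate 1 of each tissue in log2(FPKM + 1), 1 point per gene. Grey bands span plus and minus the median absolute difference over 16328 genes and the black line is their median difference. The globins stand at 1.23 to 1.72 in kidney and at -1.99 to -1.33 in small intestine. Both ranges lie outside the bands, as many genes do by the way the bands are drawn. Bpgm is at 0.16 in kidney and 0.04 in small intestine, inside the bands, and at 0.17 in lung and 0.31 in liver, outside them.

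Alas2 did not follow the globins in liver. Its FPKM came to 35.5 and 31.6 in liver, 14.9 and 18.4 in lung, 0.931 and 2.16 in kidney, and 0.311 and 0.221 in small intestine. Its order was therefore liver, lung, kidney, small intestine, with no overlap between tissues. The reads behind these values were, in that order, 782 and 783, 350 and 548, 48 and 90, and 7 and 6, so the small intestine level rests on a handful of reads.

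The mean of Alas2 in liver was 2.02 times that in lung, 21.7 times that in kidney and 126 times that in small intestine. Against the mean of the other 3 tissues, Alas2 was called higher in liver (log2 difference 3.18, SE 0.21, adjusted p = 1.08e-05 in limma, exact permutation p = 0.0357), as were 6.56% of all genes. Liver held both libraries above the other 6 for Alas2 and for 5.76% of genes. Lung was below liver by 0.97 on the log2 scale (adjusted p = 0.00777 in limma), short of the size a call needed, but by 2.55 under median-of-ratios scaling (adjusted p = 0.000364), a call. In lung Alas2 stood at 1.88 against the other 3 tissues (adjusted p = 9.32e-05 in limma), but at 0.76 with adjusted p = 0.0418 under median-of-ratios scaling, which ended the call.

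Set against globin, Alas2 stood highest in liver. Per 1000 FPKM of summed globin Alas2 measured 0.778 and 0.738 FPKM for lung, 1.08 and 0.899 for kidney, and 0.952 and 2.21 for small intestine. For liver it measured 51.5 and 42.1. The other organs spanned 0.738 to 2.21, the upper end from the library in which Alas2 had 6 reads.

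Slc4a1 and Gata1, chosen after their values were seen, were at or near 0 in liver but also in other organs. Slc4a1, the anion exchanger of the red cell membrane, had 1 read in liver replicate 1 and none in replicate 2, and Gata1, the erythroid transcription factor, had 0 reads in both. Slc4a1 was also at 0 in both small intestine libraries and Gata1 at 0 in both kidney libraries. At most 3 reads, the limit that a count of 0 allows, correspond to 0.327 and 0.291 FPKM in liver replicates 1 and 2 for a gene with 1 kilobase of exon. The limit is lower for a longer gene. The 1 read of Slc4a1 in liver replicate 1 corresponds to 0.0223 FPKM. Klf1, another erythroid transcription factor chosen in the same way, was at 0.713 and 1.58 FPKM in liver, 1.28 and 0.529 in kidney and 0.134 and 0.736 in lung. Car1, likewise chosen, a carbonic anhydrase known from red cells and gut epithelium, was at 5.77 and 5.98 in liver and at or below 0.645 in the other libraries. The source of the Alas2 reads in liver was not tested.

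**Figure D4:**
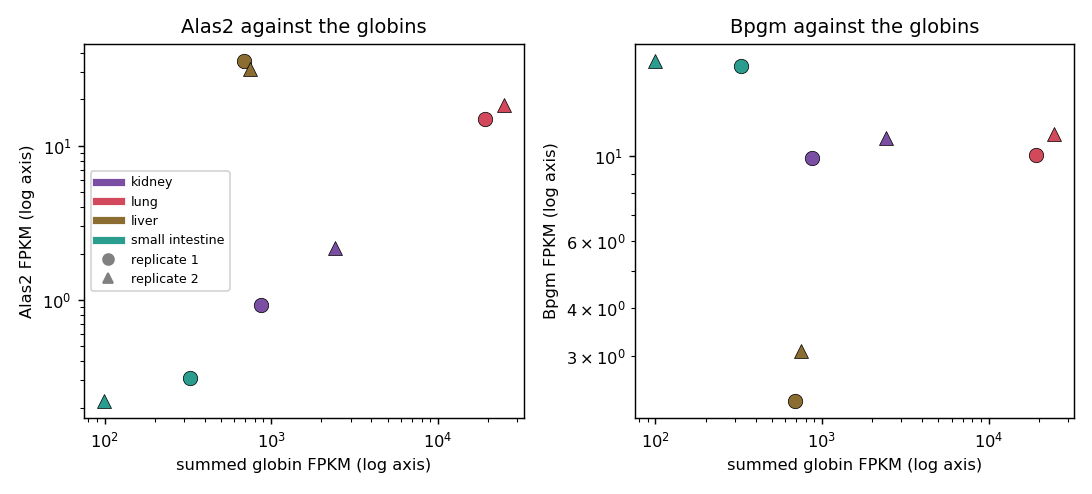
Alas2 (left) and Bpgm (right) against summed globin, in FPKM on log axes, 1 point per library. In the left panel the 2 liver points, at 35.5 and 31.6 FPKM of Alas2, stand above the path of the other tissues, and in the right panel Bpgm shows no rise with globin.

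Bpgm followed neither the globins nor Alas2. Its FPKM came to 17.3 and 17.8 in small intestine, 10.0 and 11.5 in lung, 9.89 and 11.1 in kidney, and 2.28 and 3.08 in liver. Small intestine, the organ with the least globin, had the most Bpgm, and kidney and lung overlapped.

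Against the mean of the other 3 tissues, Bpgm was called higher in small intestine (1.23, adjusted p = 0.000219 in limma, where 13.7% of genes were called higher) and lower in liver (-1.89, adjusted p = 2.11e-05). Both small intestine libraries lay above the other 6 (12.8% of all genes) and both liver libraries below them (35.1%). In lung and kidney the differences of 0.35 and 0.31 were not called. Small intestine exceeded lung 1.63 times and kidney 1.67 times in mean FPKM, differences of 0.66 and 0.69 on the log2 scale that fell short of the size for a call, and kidney and lung differed by -0.03. Under median-of-ratios scaling small intestine exceeded lung by 1.35 (adjusted p = 0.00168 in limma), a call, and lung against the other 3 tissues turned to -0.67. Liver against the other 3 tissues then stood at -1.07, still called, and the call of lung over liver (1.68) was lost at 0.30 (adjusted p = 0.288 in limma). Per 1000 FPKM of globin, Bpgm went from 0.461 in lung replicate 2 to 178 in small intestine replicate 2.

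Genes of haem synthesis beside Alas2 showed no shared move with the globins. Of 8 tested, 2 were called higher in lung and 1 lower (40.7% and 8.26% of all genes were), with a median log2 difference of -0.44 against 0.82 for all genes. Alas1, the housekeeping form of the enzyme, was at 53.1 and 43.4 FPKM in lung and 25.9 and 17.6 in liver, and was called higher in lung (1.27, adjusted p = 0.000837 in limma). Ppox, protoporphyrinogen oxidase, was the other (1.26). Cpox, coproporphyrinogen oxidase, was the one called lower (-1.24). In liver 1 of the 8, Fech, which inserts iron into the ring, was called higher at 1.20 (6.56% of all genes were). Fech was at 47.8 and 45.8 FPKM in liver and near that in kidney, at 45.7 and 38.6, against 14.8 and 18.5 in lung.

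Of 15 red cell membrane and skeleton genes, 5 passed the filter. Tmod1 (tropomodulin) passed only with the lung libraries counted, at 4.80 and 3.81 FPKM there and at or below 0.298 elsewhere. Of the other 4, only Gypc (glycophorin C), also a gene of other cells, was called higher in lung (2.09), as were 40.7% of all genes. Slc4a1 was highest in kidney, at 5.05 and 2.92 FPKM, where intercalated cells of the collecting duct are known to use it, and at 0.147 and 1.69 in lung. It was called higher in kidney (2.01), as was Dmtn, dematin, at 11.6 and 7.94 FPKM (2.81), while Gypc was called lower there (-1.63), where 8.65% of all genes were called higher and 16.1% lower. Slc4a1 and Dmtn were higher in the kidney library with less globin, and both were picked out after their values were seen.

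Erythroid transcription genes were led by factors that endothelial and other blood cells also use. Of 10, 8 passed the filter, but Tal1, Nfe2 and Bcl11a, the last a repressor of embryonic globin named here for that reason alone, did so only with the lung libraries counted. Of the other 5, 3 were called higher in lung, as were 40.7% of all genes. Lmo2 was at 35.8 and 40.7 FPKM in lung (3.26), Tal1 at 4.23 and 5.35, Ldb1 at 29.5 and 37.5 (2.28) and Nfe2 at 1.03 and 2.07. Gata1 was at 0.336 and 0.957 in lung and at or below 0.131 elsewhere. The 4 endothelial markers were called higher in lung as well, with Cdh5 (VE-cadherin) at 126 and 149 FPKM against 1.81 to 4.28 in the other 6 libraries, and their part in these factors was not tested.

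Late erythroid genes, such as those for mitochondrial iron import and organelle clearance, split. Of 15, 14 were in the table under the listed symbol and 12 passed the filter. In lung 4 were called higher, 1 of which passed only with the lung libraries counted, and none lower, where 40.7% of all genes were called higher. Isg20 (3.70) was among them, while Prdx2, peroxiredoxin 2, an abundant red cell protein, stood at -0.01. In liver 1 was called higher, Car1, and 5 lower, where 6.56% and 32.7% of all genes were.

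Of 7 genes that clear free hemoglobin and haem, 4 were called higher and 1 lower in liver (6.56% and 32.7% of all genes were), and 2 higher and 1 lower in lung (40.7% and 8.26%). Blvra, biliverdin reductase A, chosen after its values were seen, was highest in kidney instead, at 16.5 and 13.2 FPKM. Hp, haptoglobin, which binds free hemoglobin, was at 1183 and 1199 FPKM in liver and 556 and 526 in lung, against 1.04 to 2.19 in the other 4 libraries. Hpx, hemopexin, which binds free haem, was at 2404 and 2771 in liver and 8.13 and 6.50 in lung. Hmox1, the inducible haem oxygenase, was at 24.9 and 18.7 in lung, 11.1 and 12.1 in kidney and 6.61 and 8.19 in liver, and was called higher in lung (1.86, adjusted p = 2.11e-05 in limma).

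Of 7 glycolytic and related genes around Bpgm, 4 were called lower and 1 higher in lung (8.26% and 40.7% of all genes were), with a median of -1.05 against 0.82 for all genes. Minpp1, a phosphatase of 2,3-bisphosphoglycerate picked after its values were seen, had its highest mean in small intestine and its lowest in liver as Bpgm did, at 16.7 and 13.7 FPKM and at 7.42 and 6.44. Pgk1, which uses 1,3-bisphosphoglycerate, also the substrate of Bpgm, to make ATP, was at 62.8 and 62.4 FPKM in lung and between 135 and 259 elsewhere. Eno1 (-1.24) and Pklr (-3.26) were also lower and Hk1 (1.46) was higher in lung.

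Markers of other blood cells were also measured in lung, where 40.7% of all genes were called higher at a median of 0.82. Many of these genes passed the filter only with the lung libraries counted and so had to differ, 6 of the 7 neutrophil genes and 3 of the 6 platelet genes that passed among them. Of the genes that also passed without lung, 2 of 3 platelet, 1 of 1 neutrophil, 3 of 3 B cell, 4 of 4 monocyte and macrophage and 3 of 5 T cell genes were called higher. Platelet genes summed to 40.3 and 66.6 FPKM in lung and to between 1.30 and 19.7 elsewhere. Neutrophil genes summed to 106 and 424 in lung and to between 0.394 and 3.8 elsewhere, while lung replicate 2 held 1.30 times the globin of replicate 1. Pf4, platelet factor 4, was at 19.7 and 25.1 in lung. Unlike the globins, Pf4 was higher in small intestine (2.96 and 2.33) than in kidney (0.388 and 0.320) or liver (0.605 and 0.403). This did not hold for the platelet list as a whole. Of its 6 genes that passed, 2 were called higher in small intestine than in kidney and 4 were not called. Against liver the counts were also 2 and 4. The median log2 difference from small intestine was -0.16 for kidney and 0.03 for liver. The part of these cells, resident or in blood, in the lung result was not tested.

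**Figure D5:**
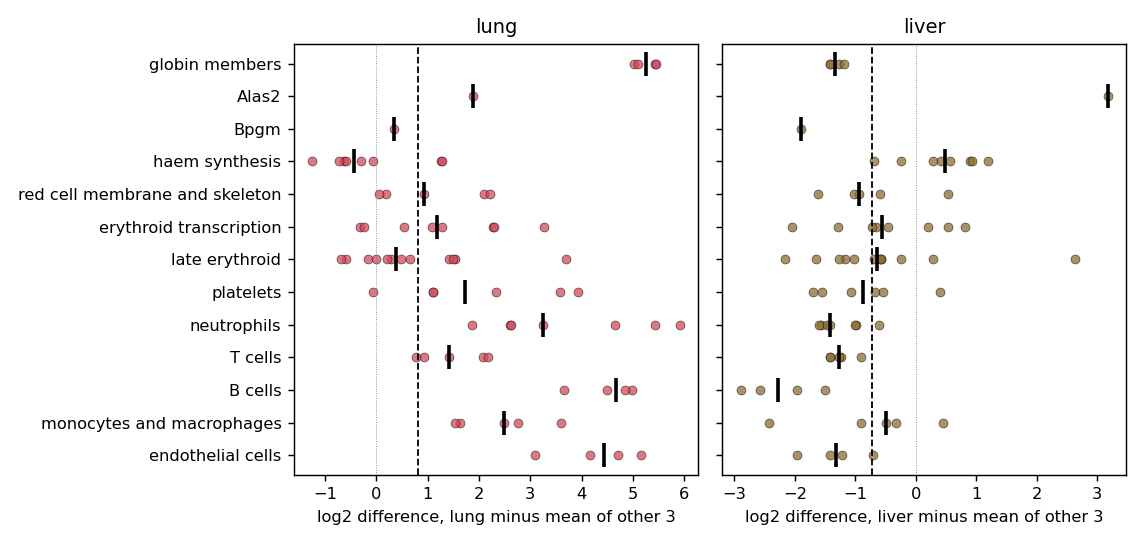
Log2 difference in log2(FPKM + 1) of lung (left) and liver (right) against the mean of the other 3 tissues, 1 point per gene that passed the filter, with the group median as a bar and the median of all 16328 genes as a dashed line. In lung the 4 globins sit at 5.02 to 5.44, and in liver Alas2 is at 3.18 and Car1, the highest late erythroid gene, at 2.64, with a positive median (0.49) for haem synthesis.

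Lung markers were near absent from the other organs. They summed to between 24.6 and 78.9 FPKM outside lung, 0.0368% to 0.118% of their lung mean. The same share of lung globin comes to between 8.10 and 26.0 FPKM. That is 0.913% to 3.53% of the globin in those libraries, except 11.2% in small intestine replicate 2. The source of the lung marker reads outside lung, and whether globin would keep the same share, was not tested.

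Genes whose pattern over the 8 libraries was most like that of summed globin were sought among 7096 genes with a mean FPKM of at least 5, by Pearson r on log2(FPKM + 1), a description over 8 libraries in which the pairs share a tissue. Ptms (parathymosin, r = 0.989), Rabac1 (0.989), Orai3 (0.979), Ift27, Copz2, Anxa5, Rab29, Mageh1, Itm2b and Tspo led. None of these 10 belongs to the red cell lists. Ptms ran only from 132 FPKM in small intestine replicate 2 to 436 in lung replicate 1, a far smaller range than that of the globins. For Alas2 the closest were Igfbp2 (0.985), St3gal5, Stbd1, Cp and Rarres2, with Igfbp2 at 156 and 113 FPKM in liver and 91.1 and 117 in lung. For Bpgm they were Scamp2 (0.992), Cript, Nectin3, Ezr and Ap1s1.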

How the data were processed

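Bulk RNA-seq libraries of 4 mouse tissues, 2 per tissue from separate mice, with all 4 tissues taken from each mouse by the methods of the study, were grouped by the tissue and replicate number in the labels. Which libraries share a mouse is not given by the labels, so the fit holds no term for the animal. The authors selected reads by sample index, aligned them with STAR 2.5.3a to the Ensembl release 75 mouse genome and deposited FPKM values from the fpkm function of DESeq2, which correct for library size and exon length but not for the makeup of each tissue's RNA. Symbols were matched to 1 gene each of GENCODE M21 for 99.3% of genes. The exon lengths gave back whole reads, within 0.02 reads, for 94.5% to 96.1% of values under 50 reads, and reads counted per library were 9164187 to 21444675.

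The values were tested as log2(FPKM + 1), on which scale low genes show smaller changes, for the 16328 genes that reached an FPKM of 1 in 2 libraries or more, in 1 limma 3.58.1 fit (R 4.3.3, a term per tissue, eBayes with a trend, Benjamini-Hochberg over all genes tested). A difference was called where its adjusted p was below 0.05 and its log2 size exceeded 1. The 6 genes were also put to an exact two-sided permutation test over the libraries. Alternatives were a pseudocount of 0.1, no filter, median-of-ratios scaling, mitochondrial genes left out, no trend, a replicate block, limma-voom on the recovered reads, and leaving out each library. The remaining steps ran in Python 3.11.15 (pandas 2.3.3, numpy 2.4.6, scipy 1.17.1, matplotlib 3.10.9).

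The members and gene lists were chosen with earlier results of these data known. Named genes were the 6 members, up to 4 genes per list (the highest mean FPKM, then the largest lung differences), the 10 genes most like the globins and 5 each for Alas2 and Bpgm, and others are marked as chosen after their values were seen. Promoter windows were those of RefSeq. Protein sequences were not used here.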

Additional observations from a re-analysis of the deposited data

How the results depend on the processing

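Of 60 differences (6 genes in 10 comparisons of tissues) 45 were called. None of the 45 changed direction under any alternative, 37 kept their call in every alternative with all 8 libraries, and 33 also kept it when each library was left out. The calls of the globins in liver against the other 3 tissues were lost under several alternatives. Of the 6 genes called there, 2 were called with no filter and 2 under median-of-ratios scaling, 3 with the replicate block, and 2 to 6 when a library was left out (2 without lung replicate 2 or either liver library). The count without a library was 2 to 5 for kidney against small intestine, in place of 4, and 2 to 6 for liver against small intestine, in place of 6. Between kidney and liver, 4 genes were called with mitochondrial genes left out, in place of 2, the added pair being Hbb-bs and Hbb-bt. The cause was not tested. Where an organ was left with 1 library, limma assumed that it varied like the others.

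Differences near 0 changed sign. In kidney against the other 3 tissues, Hba-a1 stood at -0.00079 by limma-voom on the recovered reads and at -0.86 to 0.87 without a library. Hbb-bs stood at 0.0056 with a pseudocount of 0.1, 0.29 under median-of-ratios scaling, 0.60 with mitochondrial genes left out and -0.64 to 0.63 without a library. Hba-a2 ranged from -0.83 to 0.88 and Hbb-bt from -0.55 to 0.68, and in each of the 4 globins the ends came from leaving out kidney replicate 2 and replicate 1. Bpgm in lung against the other 3 turned to -0.67 under median-of-ratios scaling, and in kidney against lung to 0.96 there, 0.62 with mitochondrial genes left out, and -0.12 to 0.058 without a library.

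Summed globin in lung was 11829 FPKM under median-of-ratios scaling and 16295 as recovered reads scaled to library size. In liver it was 1222 under median-of-ratios scaling, 667 with mitochondrial genes left out and 533 as reads so scaled.

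The replicate numbers could not be shown to pair the libraries, though libraries of different tissues share mice. The correlation of replicate deviations over 16328 genes lay between -0.217 and 0.0528 in the 6 pairs of tissues, and no label says that a number marks a shared mouse. The fit with the replicate block called 3 of 6 genes in liver against the other 3 tissues and 4 in place of 6 in liver against small intestine, where both alpha globins lost their call, and the count in each other comparison was the same.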

Other observations

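Of the embryonic and minor globins Hbb-bh1, Hbb-bh2, Hbb-y, Hba-x, Hbq1a and Hbq1b only Hbb-y, the embryonic epsilon-type beta globin, passed the filter. It had 58 reads in kidney replicate 2, 17 in lung replicate 1, 36 in liver replicate 2, 1 in liver replicate 1 and 0 in the other 4 libraries, reaching 5.29 FPKM in kidney replicate 2, 2.75 in lung replicate 1 and 5.51 in liver replicate 2, and so was present in 1 library of an organ and near absent from the other. Hbb-bh1 had 4 reads in each lung library and 0 elsewhere, and Hbb-bh2 had 0 in all 8 libraries.

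Of 3 globins of other cells, 2 (Mb and Ngb) passed the filter only with the lung libraries counted, and so were picked by their lung level. Mb, myoglobin of heart and skeletal muscle, was at 46.2 and 41.6 FPKM in lung and at or below 0.141 elsewhere. Cygb, cytoglobin of fibroblasts, was at 21.5 and 17.5 in lung against 1.21 to 4.77 in the other 6 libraries. It was called higher in lung (log2 difference 2.67), as were 40.7% of all genes.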
